A study of Sparus aurata with 6 samples.

Results

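In gilthead seabream (Sparus aurata), a farmed marine fish, the mid-anterior intestine was examined for the 200 transcripts whose signal differed most between pools of fish that had eaten the same diet. Of the 15156 target names on the array, 9720 were well above background on the 5 brighter arrays, and 7393 of these had values on the diet with the medicinal plant leaf extract (MPLE) that overlapped those on the control diet. These 7393 names are called eligible below. The 200 with the largest pooled within-diet variance, that is, the sum of squares about each diet's mean over 3 degrees of freedom, were taken as members. The spread between same-diet pools, the pattern over the 5 arrays and the overlap of the diets are thus the measured values that the members were chosen by, and they are given as a description without a test.

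The intestine of a fish is a mixed tissue. Absorptive enterocytes and mucus-secreting goblet cells line folds that also hold leukocytes, enteroendocrine cells, vessels and nerves above layers of smooth muscle. Expression differs between individual fish of a tank, and mixing the RNA of several fish averages these differences without showing them. In such bulk RNA, fewer cells of a type and less RNA per cell cannot be told apart. The files name the targets by cDNA clone or contig only, and 0 of the 15156 target names matched the seabream gene table. No gene name, role, sequence or cell type marker could thus be attached to a member, and the labelled tissue could not be checked against its markers.

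The MPLE group received a low-fishmeal diet with 0.1% of an extract from leaves of sage and lemon verbena for 92 days, and its fish are labelled as juveniles of 190 g. The control group received the same basal diet without the extract (0%) for 92 days, and its fish are labelled as juveniles of 174 g. In each diet, RNA of 12 fish was mixed into 3 pools of 4 fish, with 1 fish from each of the 4 tanks of that diet in every pool. Each pool was hybridised to its own one-colour array. Pools of a diet therefore shared their tanks. A difference between 2 pools is one between RNA mixtures of 4 fish each, together with their handling and their arrays. The part of the fish in it, and which fish of a pool carried that part, are not known.

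The values are the scanner software's processed signal on the log2 scale minus the 75th percentile of each array, averaged over the spots of a probe and then over the probes of a target name, so that 0 is the 75th percentile of an array. That percentile was 1336 to 2371 signal units on the MPLE arrays and 153 to 1835 on the control arrays. The array of control pool 2 was the dim one, at 153 units and with 43.2% of its spots well above background, against 71.7% to 87.6% on the other 5 arrays. It took no part in choosing the members, and its values are shown throughout for that reason. The brightest array was that of MPLE pool 2, with a 75th percentile of 2371 units and 87.6% of its spots well above background. The 3 MPLE arrays were scanned on 1 day at 1 position of their slides, and the 3 control arrays on another day at another position. The diet thus cannot be told apart from the scan day or the position. Differences between pools of a diet lie within 1 scan day and 1 position. No slide held more than 1 array of this study, so these differences cannot be told apart from differences between slides. With 1 array per pool, the precision of all values is limited by the number of arrays.

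The pooled SD between same-diet pools was 0.98 to 3.28 on the log2 scale over the 200 members, with a median of 1.21. Over all 7393 eligible names its median was 0.23, and it was 0.11 at the 10th percentile and 0.57 at the 90th. The largest difference between 2 pools of a diet was 3.28-fold to 119-fold over the members (median 5.68-fold), and the median over all eligible names was 1.40-fold. A difference of at least 8-fold was reached by 55 members, at least 16-fold by 12 and at least 32-fold by 5. No other eligible name reached these folds (0.744%, 0.162% and 0.0676% of all eligible names), which the choice on a large spread favours. Among the 5 was Seabream_2006-01-03-CL3934Contig1, whose high value came from 1 spot, as described below. The processed signal of the members was as low as 23.1 units in control pool 3 and 53.6 in MPLE pool 1. The 10th percentiles there were 52.3 and 75.8 units, and the part of the background correction in such folds was not tested. At the limit of the list there was no step. The last 3 members, Seabream_2006-01-03-CL2115Contig1, cDN06P0002H05.F.ab1 and cDN10P0004B11.F.ab1, had a pooled SD of 0.980, 0.979 and 0.978, and the first 3 names outside it, cDN04P0003A11.F.ab1, cDN05P0006D08.F.ab1 and Mackenzie-051508-Contig203, had 0.968, 0.966 and 0.965.

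The largest variance of all belonged to cDN11P0002A04.F.ab1. Its normalized log2 signal was -0.45, -2.77 and 4.13 in MPLE pools 1 to 3, and -0.86, -0.95 and 3.04 in control pools 1 to 3. Pool 3 was far above the other pools of its diet in both diets, the diets overlapped, and the span between MPLE pools 3 and 2 was 119-fold. Its single probe was spotted at 2 places on the array, and the 2 spots read 4.08 and 4.18 in MPLE pool 3 and -2.77 and -2.76 in MPLE pool 2, so that the places differed by far less than the pools.

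cDN08P0006I19.F.ab1 stood at high or low levels with nothing between. It had 1.96, -3.33 and 3.00 in MPLE pools 1 to 3 and -2.60, 1.84 and -3.97 in control pools 1 to 3. MPLE pools 1 and 3 and control pool 2 were thus high, and MPLE pool 2 with control pools 1 and 3 was low. The high value of control pool 2 came from the dim array that the choice did not use, where its 2 spots read 1.93 and 1.75 and were well above background. The span within the MPLE diet was 80.4-fold.

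Control pool 1 alone was high for cDN02P0002N03.F.ab1. The MPLE pools had -4.04, -3.26 and -4.69, and control pools 1 to 3 had 0.82, -4.52 and -4.76. In control pool 2 it was not well above background. This name had 3 probes of its own at different places. They read 1.04, 0.92 and 0.51 in control pool 1, and -4.95 to -2.84 in the 3 MPLE pools and -4.94 to -3.94 in control pools 2 and 3, so each probe showed control pool 1 apart. The span between control pools 1 and 3 was 47.9-fold, with control pool 3 at 58.2 signal units.

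The reverse was seen for cDN04P0006G03.F.ab1, for which 1 pool was low. MPLE pools had -1.60, -1.29 and -0.51, and control pools 1 to 3 had 0.58, -0.78 and -4.98. Control pool 3 lay below all the others at 50.1 signal units, 47.1-fold below control pool 1. Control pool 2 stood within the range of the 5 other pools. In control pool 3 both spots of the probe read -4.99 and -4.96.

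MPLE pool 2 was the high pool in the next pair of names. cDN10P0004M08.F.ab1 had -3.14, 1.73 and -2.40 in MPLE pools 1 to 3, and -0.45, -0.74 and -2.96 in control pools 1 to 3. Its 3 probes read 1.56, 1.81 and 1.81 in MPLE pool 2 and -3.29 to -2.23 in MPLE pools 1 and 3. cDN09P0003F07.F.ab1 had -4.46, -0.07 and -2.47 in MPLE pools 1 to 3, and -1.93, -3.80 and -5.65 in control pools 1 to 3. This second name was not well above background in control pool 2. In each of these names control pool 1 was above control pool 3, and the control range lay inside or overlapped that of the MPLE pools.

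cDN09P0001N13.F.ab1 was low in pool 3 of both diets, with 0.22, -1.71 and -3.81 in MPLE pools 1 to 3 and 0.79, 0.73 and -2.65 in control pools 1 to 3. Contig1746 had 1.75, -2.45 and -2.68 in MPLE pools 1 to 3, and -0.45, -2.76 and -2.05 in control pools 1 to 3. It was not well above background in control pool 2. In Contig1746 MPLE pool 1 stood above every other pool, 21.6-fold above MPLE pool 3, and its 2 spots there read 1.73 and 1.78.

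**Figure D1:**
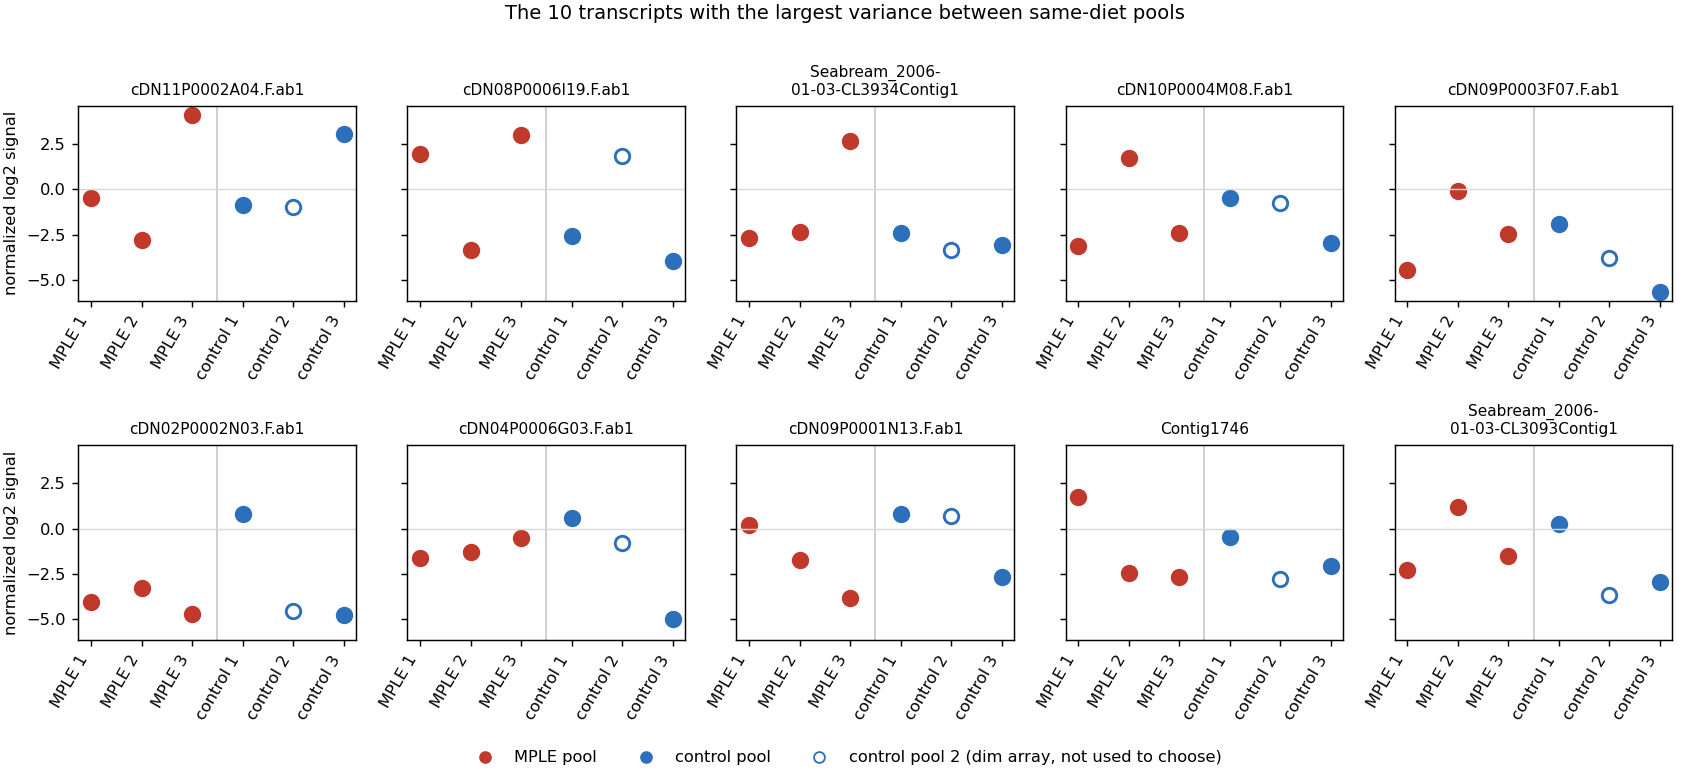
Normalized log2 signal (0 is the 75th percentile of an array) of the 10 members with the largest pooled within-diet variance, 1 point per pool of 4 fish, MPLE pools in red and control pools in blue, the open point being the dim control pool 2 that was not used to choose them. A different pool stands apart from panel to panel, as control pool 1 at 0.82 for cDN02P0002N03.F.ab1 and MPLE pool 1 at 1.75 for Contig1746.

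The remaining 2 of the first 10 members rested in part on spots that disagreed, and neither was well above background in control pool 2. Seabream_2006-01-03-CL3934Contig1 had -2.69, -2.32 and 2.68 in MPLE pools 1 to 3, and -2.39, -3.33 and -3.04 in control pools 1 to 3. In MPLE pool 3 its 2 spots read 8.27 and -2.91, so that the high value came from 1 spot and the other spot lay with the rest of the pools. The background measured around the high spot was 24158 signal units, whereas the median over that array was 30 units, and the scanner software flagged that background. Seabream_2006-01-03-CL3093Contig1 had -2.28, 1.19 and -1.48 in MPLE pools 1 to 3, and 0.26, -3.65 and -2.93 in control pools 1 to 3. Its spots read -0.12 and -2.83 in MPLE pool 3, but 1.22 and 1.16 in MPLE pool 2, the highest pool.

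Spots that disagreed were sought in all members, since the choice had used only the mean over spots. Of the 200 members, 143 had a probe at more than 1 place, and in 13 of these the spots of a probe were over 4-fold apart on at least 1 of the 5 arrays. The widest after Seabream_2006-01-03-CL3934Contig1 were Contig2653 in MPLE pool 1 (spots at 4.76 and -1.34), Seabream_2006-01-03-CL2791Contig1 in MPLE pool 1 (0.81 and -4.19), Seabream_2006-01-03-CL676Contig2 in MPLE pool 3 (3.55 and -0.32) and Seabream_2006-01-03-CL2115Contig1 in MPLE pool 1 (5.89 and 2.24), which are named after their values were seen. In 3 of the 13 (Contig2653, Seabream_2006-01-03-CL2791Contig1 and Seabream_2006-01-03-CL2115Contig1) the scanner software flagged the higher spot itself as an outlier, and these 3 were the ones no longer among the 200 when such spots were left out, while 9 of the 13 carried no flag. Taking the lower spot of every probe left 10 members under the SD of the last member, 6 of them among these 13, and taking the higher spot left 7 under it. Both ways, 183 of the 200 members kept a pooled SD at or above it.

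The median SD between repeated spots of a probe within an array was 0.12 for the members and 0.07 for all eligible names, averaged over the 5 arrays. The SD between pools was larger than that between spots in 143 of the 143 members with repeated spots. The spot SD was that of the probe with the largest in a member, averaged over the 5 arrays. The median ratio was 8.03 and the lowest 1.16, with a ratio over 5 in 93. Choosing on a large SD between pools favours this, and the ratios were not taken over the eligible names. Averaging also softens a disagreement on 1 array, as in Seabream_2006-01-03-CL3934Contig1 (2.46 between pools, 1.65 between spots). On the dim array of control pool 2, the median SD between spots was 0.33 for the members and 0.36 for all eligible names. The spots do not measure the error of extraction, labelling or hybridisation, because each pool was hybridised only once.

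**Figure D2:**
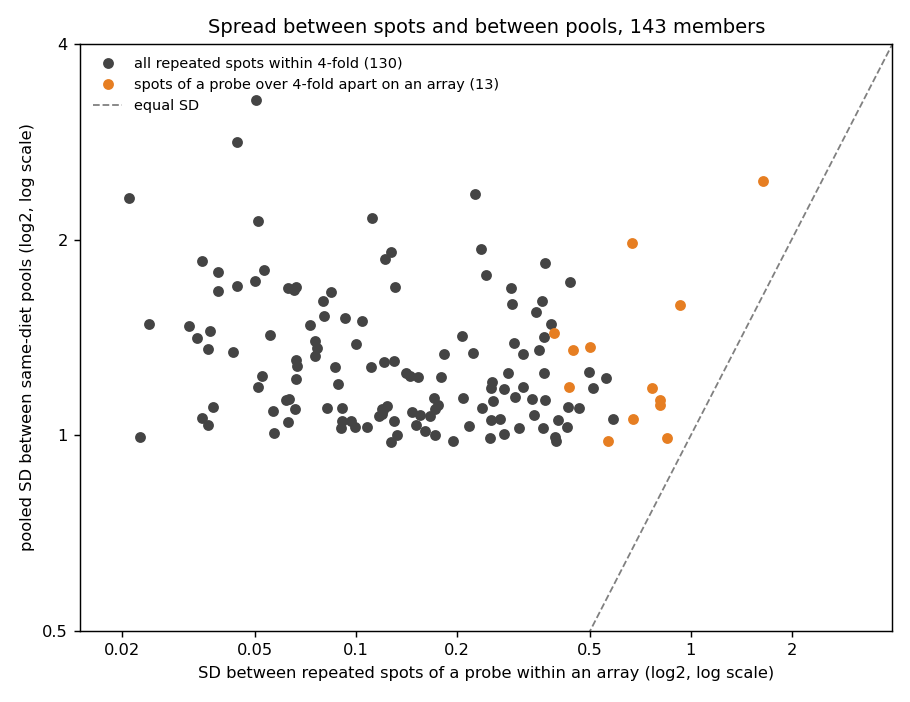
Pooled SD between same-diet pools against the SD between repeated spots within an array, for the probe of a member in which it was largest (both log2, both axes on a log scale), 1 point for each of the 143 members with repeated spots, with the 13 whose spots were over 4-fold apart in orange and a dashed line at equal SD. All points lie to the left of the line, the closest being at a ratio of 1.16, which the choice on a large SD between pools favours.

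Different probes of a target name were compared as a description only, since choosing on a large variance of the mean over probes favours names whose probes run together. Of the members, 75 had 2 or more probes. In 75 of these, all probes of the name had the same sign for 1 difference between pools. It was that of the MPLE pool farthest from the other 2, or of control pools 1 and 3 where these held most of the spread. The choice favours such agreement. The median correlation between probes of a name over the within-diet deviations was 0.99 for the 75 members. It was 0.81 for the 3367 eligible names with 2 or more probes. Each was over 5 arrays with 3 degrees of freedom and with probes that share the same RNA. The correlation was over 0.9 in 81.3% of these members, against 34.7% of these eligible names. In 51 of the 75, every probe by itself had a pooled SD above that of the last member. The lowest correlation was 0.37, for cDN05P0004I06.F.ab1, in which the SD of single probes ran between 0.68 and 2.13 (named after its values were seen). The other 125 members had 1 probe.

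To see which pools made the spread, each name was assigned to the control pair where that held over 50% of its within-diet sum of squares, and otherwise to the MPLE pool farthest from the mean of the other 2. MPLE pool 2 stood high in 118 members, which is 59% of them, whereas 23.7% of all eligible names had this pattern. It stood low in 12 members (6%, against 20.2% of eligible names). MPLE pool 1 stood high in 8 members (4%, against 8.86% of eligible names) and low in 13 (6.5%, against 7.47%). Those 8 include Contig2653, Seabream_2006-01-03-CL2791Contig1 and Seabream_2006-01-03-CL2115Contig1, which left the list when spots flagged as outliers were left out. MPLE pool 3 stood high in 9 (4.5%, against 7.06%) and low in 13 (6.5%, against 8.99%). Those 9 include Seabream_2006-01-03-CL3934Contig1, whose high value came from 1 spot. In the 27 members of the control pair (13.5%, against 23.7% of eligible names), control pool 1 was the higher in 22 (11%, against 13.5%) and control pool 3 in 5 (2.5%, against 10.3%). With 3 MPLE pools and 2 control pools, the MPLE diet had more room for spread than the control diet by construction, in members and eligible names alike.

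**Figure D3:**
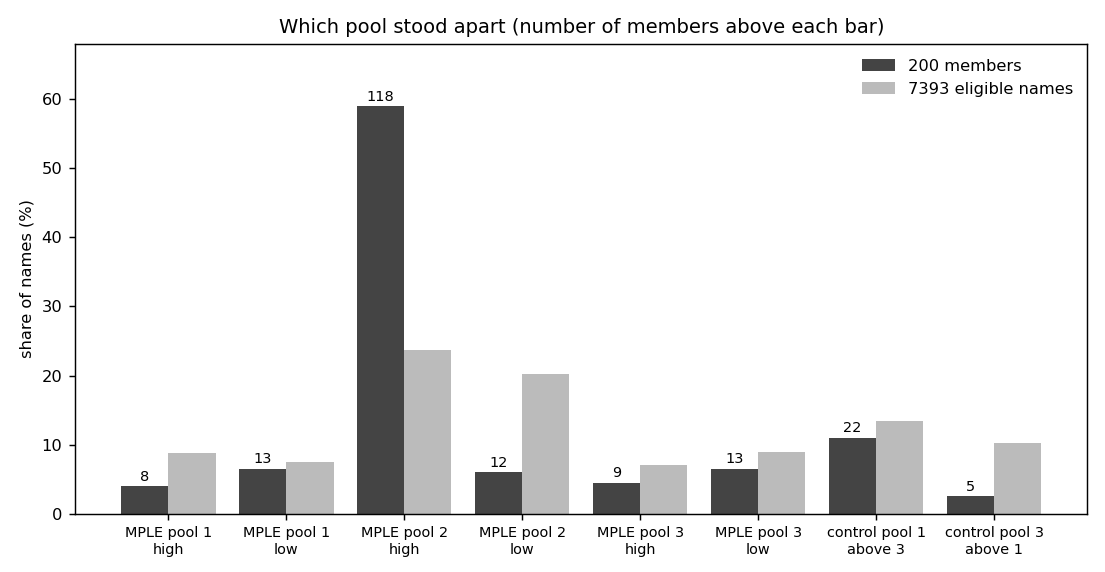
Share of names (%) in which a given pool stood apart, dark bars for the 200 members with their number above the bar and light bars for the 7393 eligible names. MPLE pool 2 high holds 59% of the members and 23.7% of the eligible names, and each other pattern holds at most 11% of the members.

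The 118 members high in MPLE pool 2 share that high value by definition, and the order of the other pools varied among them. Their median normalized log2 signal was -3.35, -0.90 and -2.99 in MPLE pools 1 to 3, and -2.51, -3.58 and -3.42 in control pools 1 to 3. The excess of MPLE pool 2 over the mean of MPLE pools 1 and 3 had a median of 2.11 (log2, 1.49 to 4.50) and MPLE pool 2 was above both control pools 1 and 3 in 114 of the 118. Control pool 1 was above control pool 3 in 85 of them, and MPLE pool 3 was above MPLE pool 1 in 86. None of these counts was made over the eligible names, and choosing on a high MPLE pool 2 favours the 114.

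These members were mostly dim. When the eligible names were divided by mean signal into 4 classes of like size, the 118 fell as 67, 36, 11 and 4 from the dimmest class to the brightest. All 200 members fell as 95, 58, 28 and 19. Over the eligible names as a whole, the same slope was present, as 43.6%, 27.4%, 16.1% and 7.63% of the 4 classes had MPLE pool 2 high, and the median of MPLE pool 2 minus the mean of the other MPLE pools was 0.41, 0.13, -0.08 and -0.25. The high pool was also the brightest array before scaling, at a 75th percentile of 2371 signal units. When each array was instead centred on the median of eligible names within 20 bins of mean signal, an alternative chosen after the data had been seen, 177 of the 200 members were kept and MPLE pool 2 was high in 105 of the new list. With another background correction (normexp on the median signals), 157 were kept and it was high in 115.

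**Figure D4:**
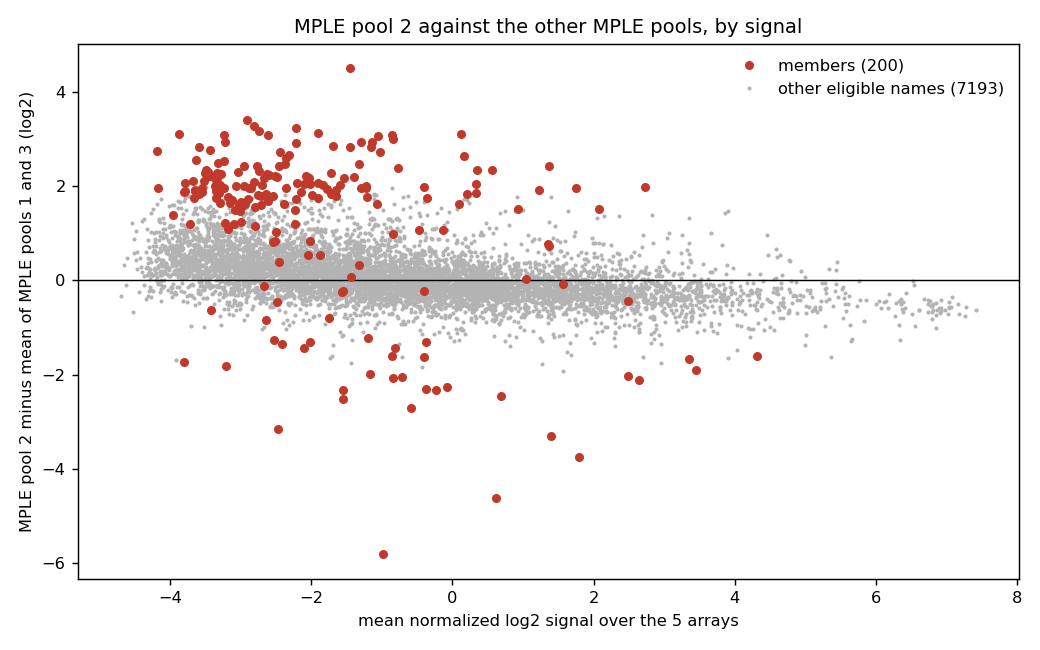
Signal of MPLE pool 2 minus the mean of MPLE pools 1 and 3 (log2) against the mean normalized log2 signal over the 5 arrays, with the 200 members in red and the 7193 other eligible names in grey. Members high in MPLE pool 2 crowd at low signal, where the grey names also lie above 0, and the members low in MPLE pool 2 spread over higher signals.

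The place on the slide was examined for the 118 members. In MPLE pool 2 their 313 spots exceeded the other MPLE arrays by 2.18 (median, log2), while the median of up to 24 spots around each was 0.10 (5th to 95th percentile -0.15 to 0.45), close to 0.12 over all spots of the array. The 118 were chosen for a high value there, so the first of these medians is a description.

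The remaining 82 members showed other patterns, and the first of each pattern by variance are given here where they were not among the first 10. Contig3589 was high in MPLE pool 1, with 1.55, -1.37 and -1.68 in MPLE pools 1 to 3 and -1.24, -0.99 and 0.86 in control pools 1 to 3. It was not well above background in control pool 2. Control pool 3 was the high control pool in this name, so both diets had 1 pool that stood out. Seabream_2006-01-03-CL4425Contig1 was low in MPLE pool 1, with -2.05, 1.77 and 0.31 in MPLE pools 1 to 3 and 1.77, 3.48 and -0.97 in control pools 1 to 3. Its highest value was that of control pool 2, which was well above background there. cDN02P0001F14.F.ab1 was also low in MPLE pool 1, with -2.94, 0.19 and -1.24 in MPLE pools 1 to 3 and -1.56, -3.91 and -3.07 in control pools 1 to 3, and was not well above background in control pool 2.

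Low values of MPLE pool 2 were found in Seabream_2006-01-03-CL2321Contig1, with 2.14, -1.56 and 2.25 in MPLE pools 1 to 3 and 4.07, -1.71 and 2.07 in control pools 1 to 3. The values of MPLE pool 2 and control pool 2 were the lowest, but this name was not well above background in control pool 2. Contig2660, another target with 3 probes, had 1.76, -1.59 and 1.65 in MPLE pools 1 to 3 and 3.40, -0.99 and 1.75 in control pools 1 to 3. After each name was centred on its mean, these 2 names differed by at most 0.36 on any of the 5 arrays. Whether they come from 1 gene is not known, since the files give neither gene names nor probe sequences.

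Low values in MPLE pool 3 marked Seabream_2006-01-03-CL1591Contig2, with 1.15, 1.72 and -2.40 in MPLE pools 1 to 3 and 1.62, 0.95 and 0.74 in control pools 1 to 3. MPLE pool 3 stood alone there, 17.3-fold below MPLE pool 2, and control pools 1 and 3 differed by 0.88 on the log2 scale. cDN11P0004M06.F.ab1 was high in MPLE pool 3, with 1.45, 1.58 and 5.03 in MPLE pools 1 to 3 and 4.74, 2.22 and 3.96 in control pools 1 to 3. Its profile was that of cDN05P0001E02.F.ab1, a member noticed after the values were seen, within 0.22 on each of the 5 arrays and within 0.03 in control pool 2 after each name was centred on its mean over the 5 arrays.

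In the control pair, Contig1699 had -2.01, -2.74 and -1.05 in MPLE pools 1 to 3 and 2.11, 0.14 and -2.26 in control pools 1 to 3. Control pool 1 was above every MPLE pool and control pool 3 within their range, with control pool 2 between the other control pools. cDN11P0005I23.F.ab1 ran the other way, with 5.08, 3.15 and 4.42 in MPLE pools 1 to 3 and 2.42, 4.53 and 6.54 in control pools 1 to 3. Its control pools spanned 17.3-fold around the MPLE pools. cDN07P0004E03.F.ab1 had -1.29, -0.73 and -1.23 in MPLE pools 1 to 3 and -4.83, -4.11 and -1.27 in control pools 1 to 3, so that only control pool 3 reached the MPLE pools. In control pool 2 this name was not well above background.

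A gap of at least 4-fold between neighbouring pools, when the 5 pools were put in order, was found in 35 members and in 35 of all eligible names (0.473%). The arrays above the gap varied. In 7 of the 35 it was MPLE pool 2 alone, in 3 control pool 1 alone, in 2 MPLE pool 1 alone and in 1 MPLE pool 3 alone. The 1 with MPLE pool 3 alone was Seabream_2006-01-03-CL3934Contig1, and 1 of the 2 with MPLE pool 1 alone was Contig2653. In both of these names the high value came from 1 spot. In 4 each, MPLE pool 2 alone or MPLE pool 3 alone lay below the gap. In 72 of the 200 members, the pools spanned at least 3-fold in both diets. That count was not made over the eligible names, and the choice on a large spread favours it.

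Pairs of members with nearly the same profile were counted by the largest difference over the 5 arrays after centring each name. It was under 0.5 on the log2 scale in 1328 of the 19900 pairs, which took in 146 members. Of these pairs, 1091 joined 2 members that were high in MPLE pool 2, and 51 joined 2 members of other patterns. The rest joined a member high in MPLE pool 2 to a member of another pattern. Sorting by pattern favours likeness within a pattern, and such pairs were not counted over the eligible names. The first component of the within-diet deviations held 58.1% of the variance of the members and 60.1% of that of the eligible names, where 3 components hold all of it. In the members it set MPLE pool 2 (loading 0.75) and control pool 1 (0.28) against MPLE pool 1 (-0.43), MPLE pool 3 (-0.32) and control pool 3 (-0.28). In the eligible names these loadings were 0.76, 0.26, -0.40, -0.35 and -0.26, in the same order. The contrast was thus not particular to the members.

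Control pool 2, which had no part in the choice, was compared with the other control pools as values only. It was well above background in 42 of the 200 members (21%) and in 50.9% of the eligible names. In all 200, it lay below both other control pools in 93, between them in 87 and above both in 20, and in the 7393 eligible names below both in 3677, between them in 1407 and above both in 2309. The choice on a large spread leaves more room between control pools 1 and 3 in the members. In the 42 it lay below in 17, between in 14 and above in 11. In the 3760 eligible names well above background there, it lay below in 1318, between in 716 and above in 1726. The median distance from the mean of control pools 1 and 3, without its sign, was 1.05 on the log2 scale in the 42 and 0.34 in these 3760. The side on which it fell depended on the background correction, since over the 200 members its median difference from the mean of control pools 1 and 3 was -0.56 on the log2 scale here and 0.98 under normexp, which adds 50 units to every signal before the log.

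The names of the targets give their clone or contig series. Of the 3761 eligible names of the cDN clone series, 133 were members (3.54%), as were 32 of 1699 names that begin with Contig (1.88%) and 29 of 1710 Seabream contigs (1.70%), against 2.71% of all eligible names. Within the clone series, the share was highest in cDN05, with 22 of 276 names (7.97%), 17 of them high in MPLE pool 2. The eligible names of cDN05 had a median normalized log2 signal of -2.63, and all eligible names had -0.96, so that signal moved with this share and its part was not tested. What the number of a clone series stands for is not given in the sources used here.

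Between the diets, the members were set beside all names tested by limma on the 6 arrays. Of the 9720 names well above background on the 5 arrays, the ranges of the diets did not overlap in 2327 (23.9%), and these could not become members. Of the 10719 names tested, 470 (4.38%) passed an unadjusted limit of 0.05 in limma, 298 higher (2.78%) and 172 lower (1.6%) on the MPLE diet, and after Benjamini-Hochberg adjustment 0 remained, with a smallest adjusted p-value of 0.827. The share of these names that was higher on the MPLE diet, 63.4%, was 30.1% under normexp and 98.6% in the deposited table without scaling. Among the 200 members 5 passed the unadjusted limit, 4 higher and 1 lower, and 0 the adjusted one. Because the choice required overlapping diets and a large spread, nothing is read from that count.

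The diet difference was estimated with little precision in the members, with a median standard error of 0.74 on the log2 scale against 0.24 over all names tested. The MPLE mean was above the control mean in 148 members (74%, against 56.0% of all names tested) and below it in 52. The median difference was 0.61, against 0.05 over all names tested. Members were chosen on spread, and MPLE pool 2 stood high in 118, so nothing about the diets is read from this. Without MPLE pool 2 the median difference of the members was 0.15, and without control pool 1 it was 1.00. It was 0.92 without MPLE pool 1 and 0.48 to 0.85 without each other array. Under normexp it was 0.05, against -0.14 over all names tested. For cDN11P0002A04.F.ab1 the MPLE pools averaged 0.30 ± 3.51 and the control pools 0.41 ± 2.28 (SD, n = 3 each), and for cDN08P0006I19.F.ab1 the MPLE pools averaged 0.54 ± 3.39 and the control pools -1.57 ± 3.04 (SD, n = 3 each). Their adjusted p-values in limma were 0.992 and 0.833. In both names the spread between pools of a diet was larger than the difference between the diets. The choice on a large spread and overlapping diets favours both results, so nothing is read from them.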

How the data were processed

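Intestinal RNA was measured in 3 MPLE and 3 control pools, grouped by the pool named in the labels. For each array the authors deposited scanner output made with Feature Extraction (version 10.7.3.1 in the headers, while the methods name another). In these deposited files the software had corrected each intensity, on a linear scale, for background within the array, and the authors had not normalized it between arrays. Its flags for spots well above background and for outliers, deposited beside it, were used as deposited. The authors also deposited a log2 table named as normalized, which held, spot by spot and within 1e-08, the log2 of the signal after background subtraction.

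The 1417 control spots were left out. The 43803 others were taken to log2, each array's 75th percentile was taken off, and spots were averaged per probe (28793) and probes per target name. A name was well above background where each of its probes was so in over 50% of its spots. No spot was saturated. The members and lists were chosen with earlier results of these data known. The named members are the 10 with the largest variance, beyond them at most 2 of the 3 with the largest variance in each pattern, and the 3 on each side of the limit, and any other is said to be chosen after its values were seen. Diets were compared with limma 3.58.1 in R 4.3.3, testing names with a probe well above background throughout the 3 arrays of a diet. The ranking by variance and the limma fit were first tested on simulated data. The overlap condition, the background filter and the averaging of spots and probes were not part of that test. Nothing states that the pools were extracted on separate days, so p-values measure only the spread between these pools.

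The alternatives were quantile normalization, normexp, the deposited log2 table, flagged spots left out, medians, other filters and percentiles, other tests, a block for the pool number, and each array left out. Normexp was run with an offset of 50 on the median signals, because the scanner files used here give no mean signal, and 4 spots each of MPLE pool 3 and control pool 2 under a background over 20 units above their own signal took the array's median background, since its fit failed on MPLE pool 3 otherwise. Centring by signal, normexp for the pool patterns and control pool 2, the alternatives for probes and components, the lower or higher spot, and the members' median difference without each array were added after seeing the data. No slide held more than 1 array of this study, so slide could not be a block. The prepared lists of cell type markers and gene groups were not analysed, because no target name matched a gene of assembly fSpaAur1.1.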

Additional observations from a re-analysis of the deposited data

How the results depend on the processing

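Of the 200 members, 157 to 197 were kept under normexp, quantile normalization, both forms of the deposited table, flagged spots left out, medians, another percentile set, centring by signal and no condition on overlap. With control pool 2 included 42 were kept, which is the number well above background there, and among names with 2 or more probes 75, which is all the members that have them. Leaving out an array kept 83 (without control pool 1) to 169 (without MPLE pool 3), and 124 without MPLE pool 2. Without control pool 1 (83 kept) or control pool 3 (163 kept), only 1 control array was left in the choice, so the control diet gave no spread to it. The condition on overlap of the diets then also rested on that 1 control array. How much either of these or anything else lowered the counts was not tested.

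MPLE pool 2 was high in 90 to 150 of the 200 names listed under the 9 alternatives run for it, against 118. It was low in 29 under quantile normalization, 3 in the deposited table and 5 in that table at the 75th percentile, against 12. The control pair held 15 members in the deposited table and 14 when over 2/3 of the sum of squares was required, against 27, and 43 to 130 when 1 MPLE pool was left out, the highest without MPLE pool 2. The deposited table, which is not scaled between arrays, put control pool 2 at a median of -4.50 from the other control pools, and normexp at 0.98, against -0.56.

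In limma, the 470 names at an unadjusted p-value below 0.05 became 166 under normexp, 139 in the deposited table, 216 in that table at the 75th percentile, 260 with every probe well above background on all 6 arrays, 922 with array weights, and 250 (without MPLE pool 3) to 654 (without control pool 1) when an array was left out. The share higher on the MPLE diet, 63.4%, was 30.1% under normexp, 98.6% in the deposited table and 38.8% on all 6 arrays. The deposited table moved the median difference of all names tested to 1.26, that table at the 75th percentile to 0.18 and normexp to -0.14, against 0.05. After adjustment 1 name passed in the deposited table and 0 to 2 when an array was left out, the 2 without MPLE pool 2. Nothing in the labels ties pools of the same number together. Correlations between same-numbered pools of the deviations from diet means were -0.13, 0.09 and 0.22, and the pool number as a replicate block gave 437 names and 0 after adjustment. The median SD between spots was 0.20 in the deposited table at the 75th percentile, against 0.12, the median correlation between probes 0.99 in each setting run, and the first component held 53.2% to 62.1%, against 58.1%. Of 403 diet differences of the 27 named members under the alternatives, 4 moved beyond the spread between pools, all in the deposited table. Members were chosen on a large spread between pools, so this limit is wide for them and the choice favours few moves. For cDN11P0002A04.F.ab1 the difference was -0.10 here, -2.02 without MPLE pool 3 and 1.43 without MPLE pool 2. Neither change counted as a move, so stable differences are not read from this count.

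The limits are the 3 pools a diet, of which 1 control array was dim, a spread that mixes fish, extraction, hybridisation and slide, and names without genes.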
